A study of Mus musculus with 3 samples.

Results

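The 50 genes described here encode the subunits of the proteasome and the immunoproteasome, their activators, their inhibitor and their assembly chaperones. They were chosen by name: every protein-coding gene of the GENCODE M21 annotation whose symbol is Psm, then a letter from a to g, then a digit. They are 50 of 22028 protein-coding genes and of 55536 annotated genes in the deposited tables. The rule uses names and no measured value, though it was set with earlier results of these data known. A name match also takes in a pair of genes with other roles, Psmc3ip, which encodes a partner of meiotic recombinases, and Psme2b, a close copy of the activator gene Psme2.

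The series measured polyA RNA of naive CD4+ T cells with an αβ receptor, labelled as thymus-derived, from 1 male B6.SJL-Ptprca Pepcb/BoyJ mouse aged 5 months. The labels give 3 technical libraries of 1 biological replicate, so there is 1 group, no treatment and no other strain or age. Every SD below is therefore the spread between technical libraries of 1 mouse (n = 3) and says nothing about the spread between mice. In bulk RNA, more cells with a transcript and more transcript per cell cannot be told apart. All 6 CD4 T cell markers were abundant (429 to 2632 TPM), with summed levels of 7529, 6945 and 7756 TPM in libraries 1, 2 and 3. Of the B cell markers 1 of 4 averaged at least 1 TPM (summed 2.07, 2.96 and 2.37 TPM), of the dendritic cell markers 0 of 5 (0.790, 0.620 and 0.720 TPM), and of the macrophage markers 1 of 4 (1.07, 1.81 and 0.820 TPM). Of the thymic epithelial markers 2 of 5 did so, Ly75 (23.0 ± 2.02 TPM) and Epcam (3.30 ± 0.593 TPM), and of the CD8 T cell markers 1 of 2, Cd8b1 (17.0 ± 0.235 TPM, beside 0.140 ± 0.0458 TPM for Cd8a).

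The proteasome degrades proteins tagged with ubiquitin. Its core particle, 20S, is a barrel of outer rings of alpha subunits and inner rings of beta subunits, and in each beta ring the β1, β2 and β5 subunits carry the cutting sites. A regulatory cap, 19S, has a base with ATPases that unfold the substrate and a lid that removes the ubiquitin. In lymphocytes and in cells exposed to interferon-γ, the immune subunits β1i, β2i and β5i (Psmb9, Psmb10, Psmb8) can take the places of the constitutive β1, β2 and β5 (Psmb6, Psmb7, Psmb5), which changes the peptides made for display on MHC class I. Psme1 and Psme2 encode PA28α and PA28β, an alternative cap that is likewise induced by interferon-γ.

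Levels are given as TPM (transcripts relative to all those in the library), which divide reads by transcript length and so can be compared between genes. A gene was called detected when it had at least 1 TPM in every library. By that rule 48 of the 50 genes were detected, where 44.6% of all protein-coding genes were. The median of the 50 mean levels was 115.2 TPM, and that of all protein-coding genes 0.357 TPM; over detected genes alone the medians were 123.7 and 31.4 TPM. In 28 genes the mean was at least 100 TPM, in 19 it lay between 10 and 100 TPM, and in 3 it was below 10 TPM. Together the genes took 0.676%, 0.625% and 0.696% of all TPM in libraries 1, 2 and 3. The coefficient of variation between libraries had a median of 8.82% over the detected genes of the list and 10.1% over all detected protein-coding genes.

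**Figure D1:**
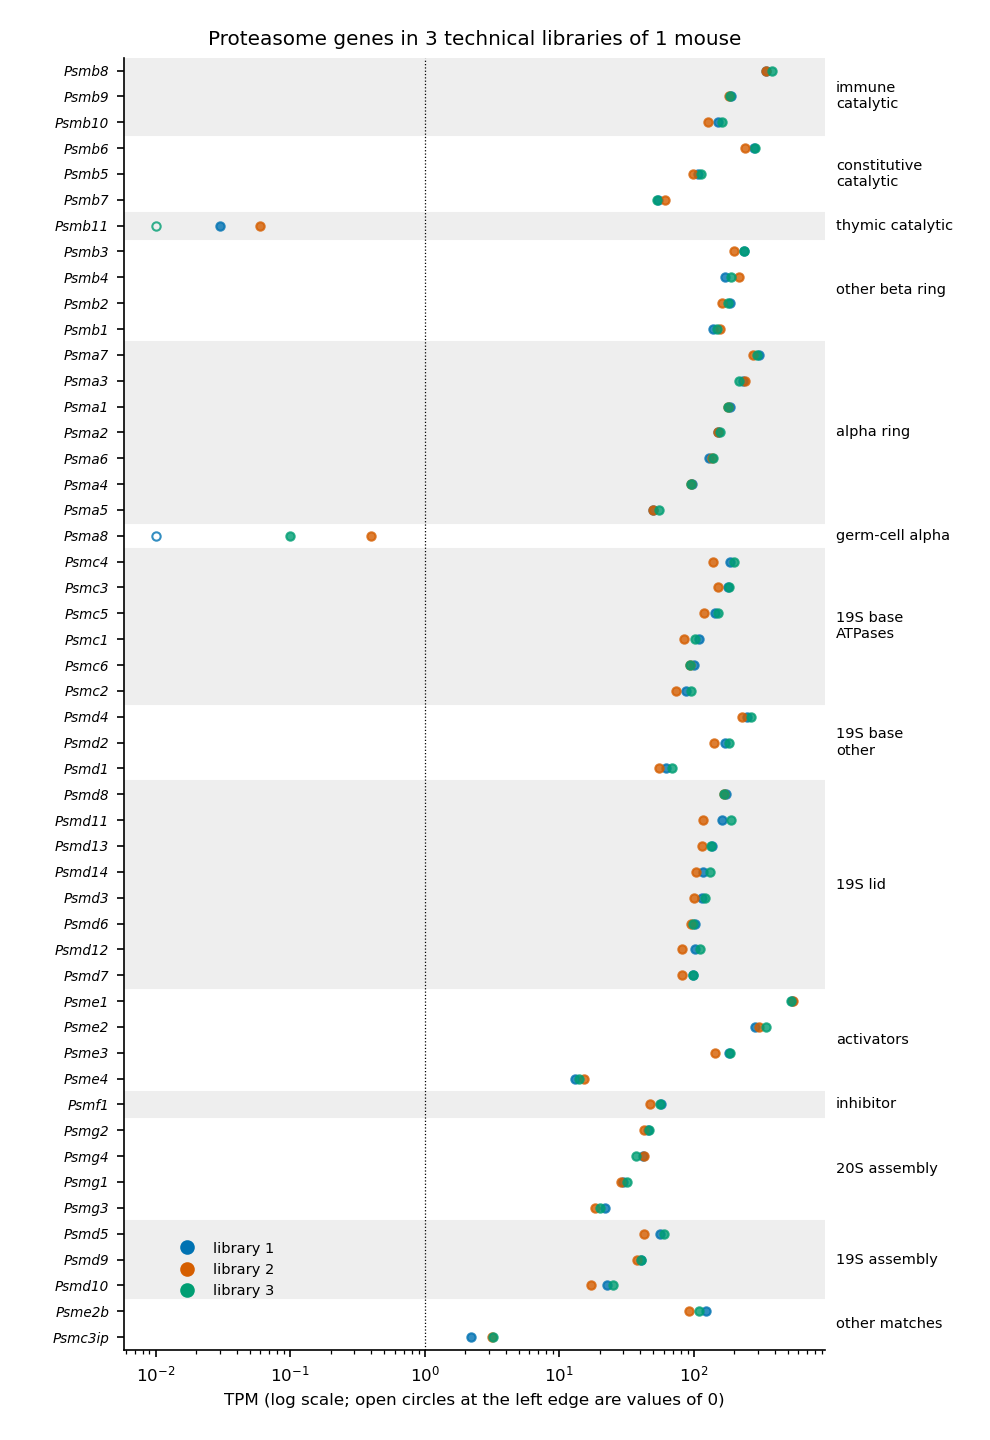
TPM (log scale) of each of the 50 genes in each of the 3 technical libraries, with genes grouped by role and sorted by mean within it; the dotted line marks 1 TPM and open circles stand for values of 0. All core and cap subunits but Psma8 and Psmb11 average above 50 TPM, most assembly chaperones lie lower, and Psmb11 and Psma8 lie below 1 TPM.

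Sorted by mean level, the 48 detected genes formed 47 neighbouring pairs, and in 39 of them the ranges of the 3 libraries overlapped, so most of the order is not resolved. The 8 steps at which the ranges did not overlap were Psme1 above Psmb8, Psmc2 above Psmd1, Psma5 above Psmg2, Psmg2 above Psmg4, Psmd9 above Psmg1, Psmg1 above Psmd10, Psmg3 above Psme4, and Psme4 above Psmc3ip. By chromosome, 10 genes lie on chromosome 11, 6 each on chromosomes 2 and 14, and 3 on chromosome 17. Those on chromosome 17 include Psmb8 and Psmb9 in the MHC region, with the gene Tap1 between them.

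The first question was whether immune or constitutive catalytic genes were the more abundant. At gene level, immune β5i and β2i exceeded their constitutive counterparts and immune β1i did not. Psmb8 (ENSMUSG00000024338.15, chr17:34197721-34201454, plus strand, mm10) had 344.3, 342.0 and 383.6 TPM in libraries 1, 2 and 3, a mean of 356.6 ± 23.4 TPM. Psmb5 (chr14:54614119-54618022, minus strand) had 107.9, 97.95 and 112.5 TPM, a mean of 106.1 ± 7.42 TPM. The ranges of the pair lay far apart. By mean, Psmb8 was the second highest gene of the list, with a range that overlapped that of Psme2. The log2 difference was 1.75 ± 0.07. The ratio of pooled length-scaled counts was 3.36, with an exact Clopper-Pearson interval at 95% of 3.22 to 3.51, which like all intervals here covers counting error only.

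For the β2 position, Psmb10 (chr8:105935735-105938444, minus strand) had 151.1, 127.6 and 160.8 TPM, a mean of 146.5 ± 17.1 TPM. Psmb7 (chr2:38588036-38644087, minus strand) had 54.14, 61.16 and 53.65 TPM, a mean of 56.3 ± 4.20 TPM. Psmb10 was higher in all 3 libraries, with the smallest gap in library 2. The log2 difference was 1.37 ± 0.28 and the pooled ratio 2.58 (2.44 to 2.73).

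For the β1 position the order was the other way. Psmb9 (chr17:34181987-34187764, minus strand) had 187.5, 183.1 and 185.6 TPM, a mean of 185.4 ± 2.20 TPM. Psmb6 (chr11:70525367-70527858, plus strand) had 280.6, 239.8 and 283.7 TPM, a mean of 268.0 ± 24.5 TPM. Psmb6 was the highest constitutive catalytic gene and stood above Psmb9 in every library. The log2 difference was -0.53 ± 0.12 and the pooled ratio 0.696 (0.671 to 0.722).

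The immune gene thus held 77.1% of its pair's TPM at β5, 72.1% at β2 and 41.0% at β1. Summed over both forms, the β5 and β1 positions had similar totals, 462.7 ± 29.5 and 453.4 ± 26.5 TPM, with overlapping library ranges. The β2 position had 202.8 ± 13.0 TPM, below both in every library. The immune genes summed to 682.9, 652.7 and 730.0 TPM in libraries 1, 2 and 3, and the constitutive genes to 442.6, 398.9 and 449.8 TPM. The means were 688.5 ± 39.0 and 430.4 ± 27.6 TPM and the log2 difference 0.68 ± 0.05. In expected counts, not divided by length, the log2 difference was 0.84 ± 0.03 for the sums, 1.89 ± 0.02 at β5, 0.77 ± 0.25 at β2 and -0.07 ± 0.15 at β1, the last within the spread between libraries. These are transcript levels, and how much of each subunit entered assembled particles was not measured.

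The direction of these sums depends on which transcripts of a gene are counted. The deposited transcript tables split each gene's TPM over its annotated transcripts, which GENCODE classes as protein-coding, as retaining an intron, or as targets of nonsense-mediated decay. Protein-coding transcripts held 55.8 ± 3.58% of the TPM of Psmb8, 35.8 ± 3.32% of Psmb9 and 18.8 ± 0.900% of Psmb10. They held all of the TPM of Psmb5, 78.6 ± 1.09% of Psmb6 and 98.8 ± 0.0410% of Psmb7. The immune genes therefore had lower protein-coding shares than the constitutive ones in every library and at each position.

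Counting protein-coding transcripts only, the immune genes summed to 271.6, 282.8 and 324.6 TPM in libraries 1, 2 and 3, and the constitutive genes to 385.3, 345.4 and 386.3 TPM. The means were 293.0 ± 27.9 and 372.3 ± 23.4 TPM, and the log2 difference of the sums was -0.35 ± 0.14, opposite in sign to that at gene level. Psmb10 against Psmb7 also turned, to -1.02 ± 0.23. Psmb9 against Psmb6 widened to -1.67 ± 0.11, and Psmb8 against Psmb5 was 0.90 ± 0.16, with Psmb8 still higher. The split rests on reads in shared exons assigned by the quantifier, so neither count is direct.

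**Figure D2:**
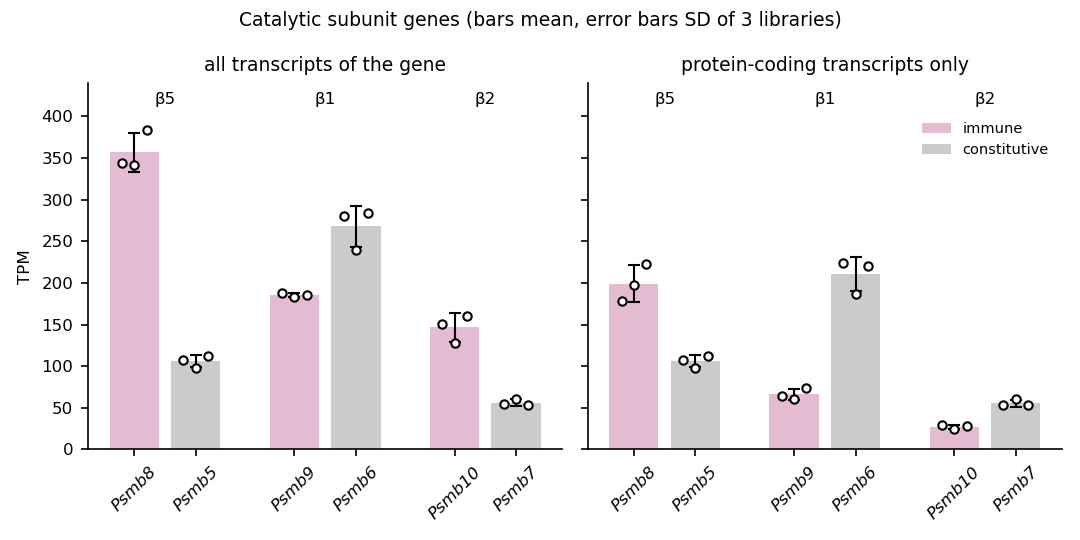
TPM of the 3 immune catalytic genes and their constitutive counterparts at the β5, β1 and β2 positions, counting all transcripts (left) or protein-coding transcripts only (right); bars are means, error bars SD and circles the 3 technical libraries. Psmb10 stands above Psmb7 on the left (146.5 against 56.3 TPM) and below it on the right (27.5 against 55.6 TPM).

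The transcripts behind this were few. In Psmb8 the coding Psmb8-203 had 133.7, 138.7 and 164.3 TPM and the intron-retaining Psmb8-205 had 136.4, 124.4 and 142.9 TPM, so the pair overlapped in level. In Psmb10 the highest transcript was the intron-retaining Psmb10-205 (55.47, 48.20 and 68.26 TPM), above the only coding one, Psmb10-201 (28.98, 24.82 and 28.58 TPM). A second retained-intron form, Psmb10-204, varied more, with 14.31, 35.52 and 46.63 TPM. In Psmb9 the highest was Psmb9-207, classed as a decay target, with 60.78, 54.58 and 57.21 TPM. The protein-coding class also holds transcripts shorter than the coding sequence, which has 657 bases in Psmb9 and 828 in Psmb8. Psmb9-202, of 433 bases, averaged 38.6 ± 2.05 TPM, above the 6-exon Psmb9-204 at 27.0 ± 6.61 TPM. Psmb8-204, of 358 bases, averaged 45.1 ± 9.73 TPM. The protein-coding sums above include these short transcripts.

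An intron kept by each of Psmb8-205 and Psmb10-204 is shown because reads inside it cannot come from the spliced coding transcript. Psmb8-205 keeps intron 3 of Psmb8-203, 190 bases at chr17:34199381-34199570 on the plus strand. Psmb10-204 keeps intron 3 of Psmb10-201, 112 bases at chr8:105937382-105937493 on the minus strand. Capitals mark the intron and lower case the 20 flanking exon bases on each side, from the GENCODE M21 transcripts.
Psmb8-205: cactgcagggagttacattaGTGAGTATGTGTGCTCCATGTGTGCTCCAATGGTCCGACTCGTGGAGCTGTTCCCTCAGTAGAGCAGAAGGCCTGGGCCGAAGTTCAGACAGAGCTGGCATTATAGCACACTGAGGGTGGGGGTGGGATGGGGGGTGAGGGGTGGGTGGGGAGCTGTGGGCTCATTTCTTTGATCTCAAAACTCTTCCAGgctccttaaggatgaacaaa
Psmb10-204: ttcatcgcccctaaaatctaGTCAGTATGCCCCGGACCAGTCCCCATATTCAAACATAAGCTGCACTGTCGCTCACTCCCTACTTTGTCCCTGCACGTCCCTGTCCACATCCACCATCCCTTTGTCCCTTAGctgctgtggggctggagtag

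The Psmb8 intron is also an exon of the antisense gene Gm20496 on the opposite strand, which was listed at 4.94, 0.750 and 4.50 TPM. Whether counting used strand is not given in the sources used here, so reads of overlapping genes on opposite strands may not be separable. The same holds for Psmb9, which shares 212 exonic bases with its neighbour Tap1, a subunit of the peptide transporter, on the opposite strand. Tap1 had 190.7, 181.4 and 185.3 TPM, close to Psmb9 in each library.

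A low protein-coding share was not general in the list. Of the 48 detected genes, 6 had under 50% of their TPM in protein-coding transcripts, 12.5% of them, as had 17.5% of all detected protein-coding genes. The 6 were Psmb9 and Psmb10, the beta ring gene Psmb4 (21.9 ± 3.64%), the alpha ring gene Psma3 (48.5 ± 4.74%), the ATPase Psmc6 (35.5 ± 3.33%) and the activator Psme1 (42.6 ± 3.05%). The median share was 81.9% in the list and 84.0% over all detected protein-coding genes. By expected counts in place of TPM, 6 genes were again under 50%, but Psmc6 was not (66.3 ± 2.70%) and Psmb8 was (42.7 ± 2.90%). Psmb4 had 39.0 ± 4.28% and Psmb10 31.9 ± 1.95% by counts. In Psmb4, Psmb9, Psmb10 and Psme1 the highest transcript was not a coding one; in Psmb4 it was the intron-retaining Psmb4-202, at 90.8 ± 12.5 TPM, and the coding Psmb4-201 had 41.6 ± 5.58 TPM.

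**Figure D3:**
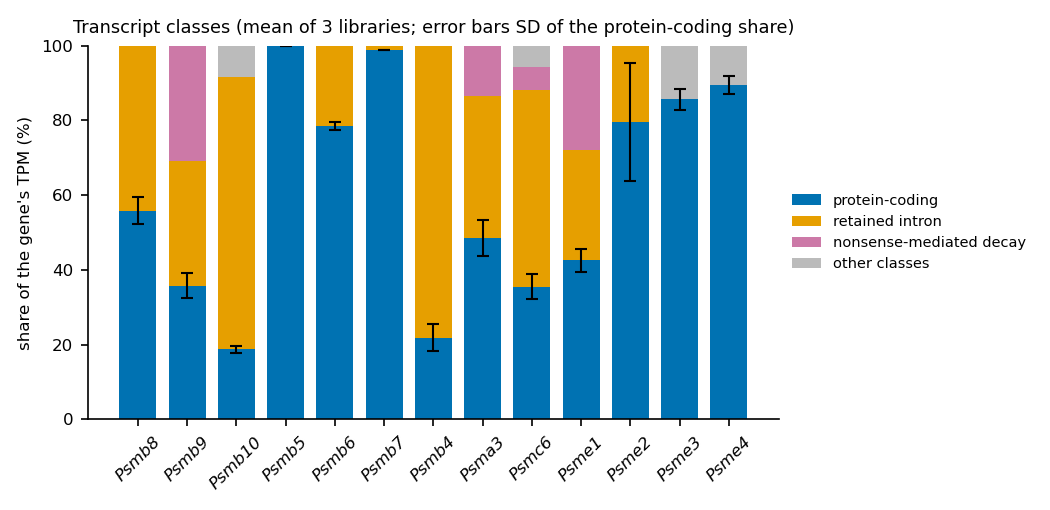
Percent of each gene's TPM given to protein-coding, intron-retaining, decay-target and other transcripts, as the mean of 3 libraries, for the immune and constitutive catalytic genes, the other genes under 50%, and the activators; error bars are the SD of the protein-coding share. The constitutive genes Psmb5, Psmb6 and Psmb7 are at 78.6% or more, and Psmb10 at 18.8%.

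Psmb11 encodes β5t, the catalytic subunit of the thymoproteasome, which is known from cortical epithelial cells of the thymus. It had 0.0300, 0.0600 and 0 TPM, from 1, 3 and 0 counts, at or below what 3 counts are worth in each library (0.0832, 0.0641 and 0.125 TPM). Psma8, an alpha subunit known from germ cells of the testis, had 0, 0.40 and 0.10 TPM from 0, 2 and 1 counts, likewise below what 3 counts correspond to (0.349, 0.607 and 0.302 TPM). Neither was detectable at this depth.

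The structural core genes without a catalytic site were all abundant. The 7 alpha ring genes had a median of 152.9 TPM. They reached from Psma5 (49.92, 50.05 and 55.48 TPM, mean 51.8 ± 3.17) to Psma7 (306.2, 275.0 and 295.2 TPM, mean 292.1 ± 15.8), a 5.64-fold range over a ring that holds 1 copy of each. The 4 beta ring genes without a catalytic site lay closer together, from Psmb1 (139.4, 157.2 and 148.2 TPM) to Psmb3 (235.0, 199.9 and 235.3 TPM), 1.51-fold apart, with a median of 184.0 TPM.

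Psma3, at 228.9 ± 12 TPM, is the alpha ring gene whose level is least certain. The processed pseudogene Gm13835 (chr6:31141979-31142663) matches 86.5% of its coding sequence at 100% identity and was given 114.1, 135.9 and 137.5 TPM. Reads from the shared stretch cannot be assigned to either locus from their sequence. Of the 50 genes, 16 have an annotated copy elsewhere that matches at least 50% of the coding sequence at 90% identity or more. Apart from Psma3, Psme2 with Psme2b, and Psmd11 (7.05%), the copies' TPM came to at most 1.58% of the gene's own.

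The cap genes sat below the core. Over 17 genes each, the median of 19S genes was 117.4, 103.9 and 133.0 TPM in libraries 1, 2 and 3, and that of 20S genes 169.3, 161.7 and 179.5 TPM. The ranges did not overlap, and the log2 difference was -0.53 ± 0.10. It is a difference of levels per length: 19S transcripts were estimated longer than 20S ones (medians 1334 and 987 bases), and in expected counts, which are not divided by length, the log2 difference was 0.04 ± 0.04. In counts on the older annotation it was 0.47 ± 0.08.

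Within the base, the 6 ATPase genes had a median of 118.1 TPM. They ran from Psmc2 (86.93, 73.34 and 94.88 TPM, mean 85.1 ± 10.9) to Psmc4 (185.6, 139.9 and 199.7 TPM, mean 175.1 ± 31.3). The other base genes covered a wider span. Psmd4, the ubiquitin receptor, had 247.0, 226.5 and 265.8 TPM, and the scaffold Psmd1 had 62.64, 55.21 and 68.35 TPM, the lowest of all 17 cap genes. The scaffold Psmd2 averaged 165.3 ± 21.8 TPM.

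The 8 lid genes had a median of 115.2 TPM and spanned 1.83-fold. Psmd8 had 174.2, 168.6 and 167.3 TPM and Psmd7, the inactive partner of the deubiquitinase, 98.65, 81.33 and 98.14 TPM. Psmd14, the deubiquitinase itself, averaged 118.1 ± 14.5 TPM.

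By median, the assembly chaperones were the lowest of the roles with 3 or more genes. The 3 chaperones of the 19S base ran from Psmd10 (22.51, 17.36 and 24.93 TPM) to Psmd5 (55.79, 42.44 and 60.27 TPM). The 4 chaperones of the 20S core ran from Psmg3 (22.00, 18.50 and 20.08 TPM) to Psmg2 (45.51, 42.77 and 46.53 TPM). Their joint median was 40.61, 38.01 and 36.95 TPM in libraries 1, 2 and 3, against the 20S medians above, a log2 difference of -2.14 ± 0.12. All 7 chaperones stood below every 20S gene in mean level except Psma5, which lay just under Psmd5 with overlapping ranges.

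Among the activators, the PA28 genes were the most abundant. Psme1 (chr14:55578123-55581529, plus strand) had 537.4, 547.4 and 527.0 TPM, a mean of 537.3 ± 10.2 TPM, the highest of the 50 genes and rank 232 of all protein-coding genes. Psme2 (chr14:55587441-55591113, minus strand) had 284.3, 303.8 and 343.7 TPM, a mean of 310.6 ± 30.3 TPM. Psme1 was above Psme2 in every library, by a log2 difference of 0.79 ± 0.16. In protein-coding transcripts alone the difference was -0.09 ± 0.27, within the spread between libraries. Psme1 had 29.4 ± 2.16% of its TPM in intron-retaining and 28.0 ± 1.50% in decay-target transcripts.

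Psme3 encodes PA28γ, the nuclear member of the family, which is not induced by interferon-γ. It had 183.4, 143.1 and 185.1 TPM, a mean of 170.5 ± 23.8 TPM, and Psme1 exceeded it by 1.66 ± 0.23 on the log2 scale. Psme4, which encodes the large activator PA200, had 13.17, 15.17 and 13.96 TPM, a mean of 14.1 ± 1.01 TPM, and Psme1 exceeded it by 5.24 ± 0.09. In expected counts without length correction the log2 difference of Psme1 from Psme3 was -0.17 ± 0.21, within the spread, and that from Psme4 was 2.34 ± 0.10. Psmf1, which encodes the inhibitor PI31, had 56.94, 47.07 and 55.65 TPM, a mean of 53.2 ± 5.36 TPM.

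Psme2b (chr11:48945354-48946190, minus strand) was listed at 123.9, 92.65 and 109.9 TPM, but its reads can hardly be told from those of Psme2. The coding sequences have the same length, 717 bases, and are 99.3% identical, with 5 differing bases and no gap. The 150-base window from base 394 to base 543, counted from the A of the start codon, holds 3 of the 5. It is shown because, within the coding sequence, only reads over such bases separate the genes; the differing bases are in capitals. Reads in introns or untranslated parts, which were not compared, may separate them too.
Psme2: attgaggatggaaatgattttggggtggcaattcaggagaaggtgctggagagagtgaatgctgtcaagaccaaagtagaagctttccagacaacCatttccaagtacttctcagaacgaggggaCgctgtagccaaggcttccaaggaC
Psme2b: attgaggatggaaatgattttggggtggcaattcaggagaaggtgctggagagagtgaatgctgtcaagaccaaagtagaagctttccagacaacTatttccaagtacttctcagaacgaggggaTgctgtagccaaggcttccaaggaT

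With the level of Psme2b added to Psme2, the log2 difference of Psme1 over Psme2 was 0.36 ± 0.13. Psme2b also lies on the same strand as 9930111J21Rik1 and shares 41 exonic bases with it, a gene listed at 136.3, 100.5 and 128.0 TPM. By comparison, the immune and constitutive catalytic genes are easily separated, with coding sequences 63.7% identical in Psmb8 and Psmb5, 61.7% in Psmb9 and Psmb6, and 62.2% in Psmb10 and Psmb7. Psmc3ip had 2.19, 3.19 and 3.21 TPM.

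The remaining question was whether the libraries, made from the same mouse, gave the same levels. Expected counts were set against totals scaled by edgeR's TMM factors with a chi-square test of homogeneity, and p-values were adjusted by Benjamini-Hochberg over 13090 genes. It compares libraries, not conditions, and treats estimated reads as counted ones. It called 27 of 48 genes (56.2%), where 40.0% of all genes tested were called. Restricted to genes averaging 100 or more counts, it called 27 of 47, where 51.6% of all such genes were called. In 19 of the 27 library 2 was lowest (39.6% of the 48, against 17.4% of all genes), and in 8 it was highest (16.7%, against 18.2%). Without library 3, where library 2 was set against library 1 only, 11 of 48 were called with library 2 lowest. Of all genes 27.6% were then called in either direction. In the older counts it was 6 of 48, where 18.9% of all genes were called in any direction. The differences were small, with a median ratio of the highest to the lowest library of 1.12 in the list and 1.20 over all genes tested.

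By particle, 13 of the 17 19S genes were called, each with library 2 lowest. Of all genes tested 40.0% were called, and 17.4% were called with library 2 lowest. Of those averaging 100 or more counts, 51.6% were called in any direction. The count of 19S genes called with library 2 lowest was 8 of 17 without library 3. It was 5 of 17 in the deposited counts on the older annotation. The matching share of all genes was not computed for either. Of the 17 20S genes 8 were called, close to both of these shares in any direction, 40.0% and 51.6%. Library 2 was lowest in 2 of the 8 (Psmb6 and Psmb10) and highest in 6 (Psma3, Psma6, Psmb1, Psmb4, Psmb7 and Psmb9). The median log2 difference of library 2 from the mean of libraries 1 and 3 was -0.14 for 19S genes and 0.07 for 20S genes. No call was made among the 4 Psmg chaperones, where 40.0% of all genes tested were called. They had 587 to 1303 expected counts in total, fewer than any 19S or 20S gene. With 4 genes and these counts, the absence of calls says little about them.

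The 5 called genes with the widest ratios were Psmd11, Psmd5, Psmd10, Psmb4 and Psme4. The lid gene Psmd11 had 117.9 TPM in library 2 and 160.9 and 190.2 TPM in libraries 1 and 3, a log2 difference of -0.47 in scaled counts (chi-square test, adjusted p = 4.37e-30). Libraries 1 and 3 also lay apart there. The chaperones Psmd5 and Psmd10 had log2 differences of -0.33 each (adjusted p = 1.76e-09 and 0.0065, chi-square test).

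Psmb4, a beta ring gene, had 217.4 TPM in library 2 and 169.3 and 188.7 TPM in libraries 1 and 3, a log2 difference of 0.39 (chi-square test, adjusted p = 3.68e-14). Psme4 had a log2 difference of 0.32 (adjusted p = 1.37e-05, chi-square test). Without library 2 the test called 5 of the 48 genes, where 14.7% of all genes were called. In the deposited integer counts on the older GENCODE M4 annotation it called 8 of 48, where 18.9% of all genes were called. That table differs in counting and in depth as well, with totals of 5160325, 5816158 and 5703629 in libraries 1, 2 and 3.

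**Figure D4:**
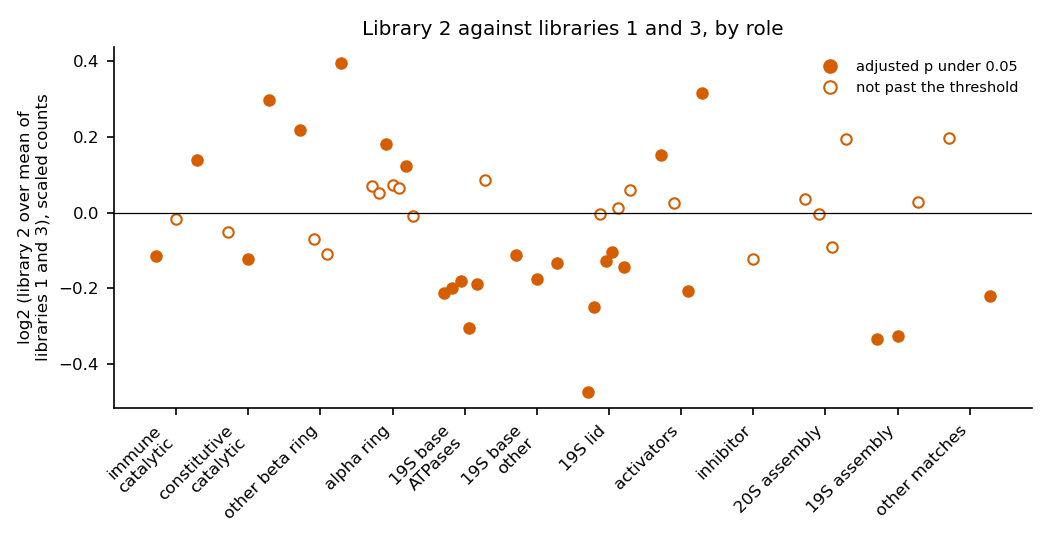
Log2 difference of library 2 from the mean of libraries 1 and 3 in scaled counts for each of the 48 tested genes, by role; filled circles passed the chi-square test at an adjusted p under 0.05. The called 19S genes all lie below 0, between -0.47 and -0.10, and the called alpha ring genes and most called beta ring genes lie above it.

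Other measures also differed between the libraries. Ribosomal RNA genes took 1.47% of the TPM of library 2, against 0.575% and 0.635% in libraries 1 and 3. Ribosomal protein genes took 9.74%, against 6.86% and 6.57%. The expected counts totalled 14837442, 18207118 and 17505621 in libraries 1, 2 and 3, so in depth library 1 stood apart and libraries 2 and 3 were close. Over the 48 genes, Spearman's rho between transcript length and the log2 difference of library 2 was -0.38, as a description of genes that share libraries; over 13057 genes it was 0.03. The part of these measures in the library differences was not tested.

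Of a list of other genes of the pathway without a Psm name, 34 were in the tables and all 34 were detected, with a median of 104.9 TPM beside 115.2 TPM for the 50 genes. The highest was the ubiquitin gene Ubb (2478 ± 417 TPM) and the lowest the shuttle Ubqln2 (6.65 ± 0.458 TPM). Pomp, the maturation chaperone of the 20S core, had 179.2 ± 16.4 TPM, above each Psmg chaperone in every library. Adrm1, the ubiquitin receptor of the cap, had 186.8 ± 25.8 TPM, and the cap-bound deubiquitinases Usp14 and Uchl5 had 95.0 ± 7.64 and 78.6 ± 13.1 TPM. The transcription factor gene Nfe2l1, whose protein drives proteasome genes after inhibition, had 44.6 ± 1.58 TPM.

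Among genes of the interferon response and of peptide display, Irf1 stood above Psmb8 in every library, at 460.9, 402.7 and 435.4 TPM. Nlrc5, the activator of MHC class I genes, averaged 114.5 ± 21.8 TPM. The peptide loading genes Tap1, Tap2 and Tapbp averaged 185.8 ± 4.68, 221.9 ± 31.3 and 300.1 ± 38.0 TPM. Between libraries, 26 of the 34 differed by the same chi-square test, 15 with library 2 lowest and 9 with library 2 highest. Over all genes tested, 17.4% were called with library 2 lowest and 18.2% with library 2 highest. In any direction the share called was again 40.0% of all genes tested, and 51.6% of those averaging 100 or more counts.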

How the data were processed

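The deposited gene, transcript and older count tables were used for each of 3 technical libraries. Per the text accompanying the files, reads were quantified on mm10 with GENCODE M21; no aligner or quantifier is named there. TPM, expected counts and lengths per gene were deposited by the authors, as were TPM, expected counts and percent of a gene's TPM per transcript. The authors also deposited integer counts for genes of GENCODE M4, an earlier annotation, used only for alternatives. Entries that name no gene (0.247%, 0.200% and 0.325% of expected counts) stayed out of library sizes and tests. No molecular identifiers are recorded, so intervals cover counting error only.

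Values are means and SDs over libraries; log2 ratios used TPM + 0.1. Pooled ratios used expected counts divided by length and exact Clopper-Pearson intervals at 95% (scipy 1.17.1). Library differences used rounded expected counts of genes with a mean of at least 10, TMM factors (edgeR 4.0.16, R 4.3.3), a chi-square test and Benjamini-Hochberg adjustment at 0.05. The test was run on simulated Poisson counts with known changes and the library sizes that it assumes. That simulation does not cover estimated counts or the spread between library preparations. The edgeR quasi-likelihood test has no contrast in 1 group. DESeq2 1.42.0 gave other size factors. Sequence copies were found with blastn 2.17.0, and coding sequences aligned with Biopython 1.88. Upstream regions are from RefSeq.

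Values in every library are printed for all catalytic, activator and inhibitor genes, the highest and lowest of each other role, and the 5 called genes with the widest ratios; some others were chosen after their values were seen. Members, lists, roles and motifs were chosen with earlier results of these data known. The alternatives that add sequence copies, or use expected counts of protein-coding transcripts, were chosen after seeing the data.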

Additional observations from a re-analysis of the deposited data

How the results depend on the processing

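Across 11 results and 123 alternatives, 86 kept the direction within the spread between libraries (counts within 1.5 times), 26 moved and 11 reversed. In log2, the values were as follows. Expected counts without length correction gave Psmb9 to Psmb6 -0.07, Psmb10 to Psmb7 0.77, Psmb8 to Psmb5 1.89, the immune to constitutive sum 0.84, Psme1 to Psme3 -0.17, Psme1 to Psme4 2.34, 19S to 20S 0.04 and assembly to 20S -2.41. Counts on the older annotation, also uncorrected for length, gave -0.24, 0.95, 2.27, 0.85, 0.12, 0.77, 0.47 and -1.87 in that order, and 1.36 for Psme1 to Psme2. TPM of protein-coding transcripts alone gave Psmb9 to Psmb6 -1.67, Psmb10 to Psmb7 -1.02, Psmb8 to Psmb5 0.90, the sum -0.35, Psme1 to Psme2 -0.09, Psme1 to Psme3 0.65, Psme1 to Psme4 4.17 and 19S to 20S -0.34. Their expected counts gave -1.66, -0.83, 0.66, -0.45, -0.15, -1.18, 1.28 and 0.26. Adding sequence copies gave Psme1 to Psme2 0.36, and posterior mean TPM gave Psme1 to Psme4 5.07. The cause of these changes was not tested; the older table differs in annotation, counting and depth at once. The number of genes that differ between libraries was 8 of 48 on the older annotation, where 18.9% of all genes were called. It was 25 without library 1 (36.8% of all genes), 5 without library 2 (14.7%) and 18 without library 3 (27.6%). Psma8 and Psmb11 were at 3 counts or fewer in every library; the effect of depth on the other results was not tested. No paired analysis was possible because the libraries form 1 group.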

Other observations

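Upstream regions of 250 bases before the RefSeq transcription start (GRCm38.p6) were found for 42 of the 50 genes, 45 regions in all, and searched on both strands for 8 short motifs as a description of sequence only. The ETS core CCGGAAG occurred in 31.1% of these regions, in 15.6% of the regions of detected protein-coding genes and in 6.91% of all 32851 regions. The GC box GGGCGG occurred in 51.1%, against 59.1% and 32.7%, and the CCAAT box in 33.3%, against 35.8% and 33.8%. CpG dinucleotides had a median of 14 per region in these genes, 16 in detected protein-coding genes and 6 in all regions. Among immune catalytic genes, the GAS motif TTCNNNGAA was found in the window of Psmb8. The ISRE core (a pair of GAAA repeats with a 2-base gap) was found in the windows of none of the 3. The windows of Psmb8, Psmb9 and Psmb10 overlap exons of GENCODE transcripts of the same genes, so they are not upstream of every start. Exons of the coding transcripts Psmb8-201 and Psmb9-204 cover all 250 bases of their gene's window, and those of Psmb10-201 cover 52. The GAS motif was in 4.44% of the list's regions, 5.92% of detected genes' and 7.02% of all regions, and the ISRE in 6.67%, 2.77% and 2.98%. The antioxidant element TGACNNNGC was in 11.1%, 11.7% and 10.2%, the TATA box TATAAA in 8.89%, 5.93% and 12.4%, and the CRE palindrome in 0 of 45 regions, 2.80% and 1.55%. Overlapping matches of different motifs were counted for each. Psmb7 was not among the 42 genes matched. A match describes letters in this window, and binding was not measured.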
